A study of Homo sapiens with 6 samples.

Results

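MBNL1, WBP11 and GPATCH8 are 3 genes for proteins of pre-mRNA splicing whose mRNAs were less stable in MOV10-depleted HEK293 cells than in mock-transfected cells. They are the rows with these symbols, 3 of the 7682 genes in the deposited table. They were selected on the authors' half-lives, which were shorter after depletion, so every value that compares MOV10 siRNA with mock cells is given for them as a description, with no test. The same holds for mock labelled and flow-through RNA, from which the mock half-lives derive. MOV10 is an RNA helicase, and HEK293 is a human embryonic kidney cell line. The series asked how loss of MOV10 alters mRNA stability. One set of cells had received MOV10 siRNA and the other was mock transfected. The sources used here give neither the siRNA sequence nor whether mock cells received a control siRNA. Both sets of cells had their new RNA labelled for 60 min with 700 µM 4-thiouridine (4sU), a uridine analogue that allows RNA made in that time to be pulled out on beads. Poly(A)+ RNA was sequenced from total RNA, from the labelled fraction and from the unlabelled flow-through, which gives 6 groups. GEO lists 1 sample per group, while the table holds 2 replicate columns for each, named as such in its header. That the columns are separate cultures is stated nowhere in these sources. A p-value here therefore reflects the spread between columns alone, which may be technical.

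Splicing removes introns from pre-mRNA, and regulators that bind the RNA or the spliceosome decide which exons are kept. MBNL1 (muscleblind-like 1) is a zinc finger protein that binds RNA directly and promotes or represses exons. It is best known from myotonic dystrophy, where expanded CUG repeats sequester it. WBP11 (WW domain binding protein 11) is a proline-rich nuclear protein that binds the WW domain of PQBP1, binds protein phosphatase 1 and associates with the spliceosome. GPATCH8 carries a G-patch, a short glycine-rich domain by which several proteins bind and activate DEAH-box helicases such as DHX15. An mRNA's half-life is read from 4sU data as the share of an mRNA that is new: a short-lived mRNA is rich in the labelled fraction and poor in the flow-through.

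The paired columns were close to each other, with Spearman correlations of 0.981 to 0.996 across genes, a description over genes that share the columns. MOV10 itself was at 3.53 and 3.64 in total RNA of siRNA cells, against 13.1 and 14.6 in mock cells, so the depletion is visible in both columns. The authors' normalised expression values carry no named unit. The lowest of them is 1.00, and the read depth is unknown. Of the cell type markers looked up, 2 of 5 markers of HEK293 cells (VIM and CDH2) and 0 of 6 markers of other cell types had values. Widely expressed genes such as HNRNPA1, SF3B1, SNRNP200 and SON had no value here either, so a gene without a value cannot be taken as low or absent in the cells, and the markers say little about cell identity. Comparisons used 6064 genes (78.9% of the table) whose total RNA averaged at least 5 in siRNA cells and in mock cells, and all 3 genes passed. MBNL1 stood nearest to that minimum, with a mean of 6.99 in siRNA cells. Log2 changes of expression are differences of log2(value + 1), which understates the change of low genes, and all log2 changes are siRNA minus mock and relative to the median gene of each column unless stated otherwise. The values are averages over a culture, so fewer cells holding an mRNA and less of it per cell cannot be told apart.

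A short sequence recurs after the stop codon of MBNL1 and WBP11. The 7-base sequence TACTGCA, which an earlier search of these half-lives had picked out, occurs 3 times in the longest annotated 3' UTR of MBNL1 and 1 time in that of WBP11. The annotated 3' UTR of the coding GPATCH8 transcript is only 152 bases long and holds 0 matches. A longer GPATCH8 transcript that GENCODE classes as a retained intron holds 2284 bases past the position of that stop codon and 1 match, which was looked for after the values were seen. The matches are shown because MBNL1 and WBP11 have this stretch in common, and the GPATCH8 match, which neither of its annotated coding transcripts holds, is set beside them. Each has 10 bases on either side, 5′ to 3′ on the mRNA strand, with the 7 bases in capitals:
MBNL1 site 1: cttccaagttTACTGCAagtttttatg
MBNL1 site 2: ttttcaaaacTACTGCAtgtttaaaac
MBNL1 site 3: attttattatTACTGCAgtagttgact
WBP11 site 1: gttcagaattTACTGCAcataaaaaag
GPATCH8 site 1: atttgtagtaTACTGCAataatatttt

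In GENCODE v29 coordinates (build GRCh38), the MBNL1 windows lie on the plus strand at chr3:152463894-152463920, chr3:152465171-152465197 and chr3:152465697-152465723. They begin their matches 1563, 2840 and 3366 bases after the stop codon, in a 3' UTR of 3438 bases. The WBP11 window lies on the minus strand at chr12:14786894-14786920, with its match starting 155 bases into a 3' UTR of 2486 bases. The GPATCH8 window lies on the minus strand at chr17:44396679-44396705, 873 bases after the stop codon, in exon sequence of 2 of the gene's 11 transcripts, both classed as retained intron. The authors aligned to hg18, and these positions come from the annotation and not from their files.

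**Figure D1:**
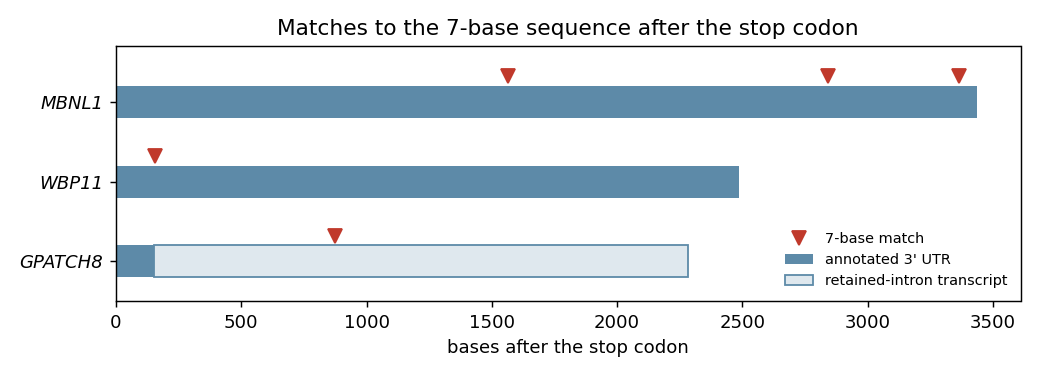
Positions of TACTGCA matches (triangles) along the sequence after the stop codon, in bases, for MBNL1, WBP11 and GPATCH8. Dark bars are the longest annotated 3' UTR (3438, 2486 and 152 bases), and the pale bar is the further sequence of a GPATCH8 retained-intron transcript, which carries that gene's only match at base 873.

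How common the sequence is depends on length. TACTGCA was present in 11.7% of the longest annotated 3' UTRs of the 5664 genes that had one under their symbol here (median 1368 bases). Among the 689 genes with a 3' UTR within 20% of the length of that of MBNL1 the share was 18.6%, and among the 822 genes matched to WBP11 it was 13.0%. Of the 133 genes with a 3' UTR as short as the annotated one of GPATCH8, 0 held it. The sequence was sought on the mRNA strand only, and a match is a description of letters and not of a bound site. Of 13 coding MBNL1 transcripts with an annotated 3' UTR, 9 held all 3 matches, 2 held 2 and 2 held 0, with 3' UTRs of 25 to 3438 bases. Of 2370 mature miRNAs in the RefSeq table (GRCh38.p14), 0 have bases 2 to 8 complementary to it. The AU-rich pentamer ATTTA occurred 12 times in the 3' UTR of MBNL1 and 13 times in that of WBP11, and 73.9% of all 3' UTRs held it. Among genes matched in length it was held by 95.9% for MBNL1 and 92.8% for WBP11. The Pumilio-type sequence TGTANATA occurred 2 times in MBNL1 and 1 time in WBP11 (29.8% of all), and the let-7 site CTACCTC occurred 0 times in either (10.4% of all). In the length-matched genes TGTANATA was held by 49.1% for MBNL1 and 40.8% for WBP11, and CTACCTC by 14.4% and 11.6%. The short 3' UTR of GPATCH8 held 0 of each.

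The half-lives, taken as minutes, of all 3 mRNAs were shorter in both siRNA columns than in both mock columns. Those of MBNL1 were 383 and 438 min in siRNA cells, against 1009 and 973 min in mock cells. Those of WBP11 were 197 and 281 min in siRNA cells, against 468 and 578 min in mock cells. Those of GPATCH8 were 129 and 191 min in siRNA cells, against 277 and 275 min in mock cells. The groups did not overlap for any of them, which also held in this direction for 27.3% of the 6064 genes. The log2 changes were -1.47 for MBNL1, -1.34 for WBP11 and -1.01 for GPATCH8, places 4, 7 and 28 from the lowest of all 6064. All 3 lie beyond 1 log2 unit, as did 0.495% of the genes, and as they were chosen for this nothing is read from it.

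Before centring, the median half-life change of all genes was 0.20, so the folds of the deposited values are smaller: the means of MBNL1 were 2.41-fold lower, those of WBP11 2.19-fold lower and those of GPATCH8 1.72-fold lower. Half-lives recomputed here from the 3 fractions by 1 rule gave log2 changes of -1.35 for MBNL1, -1.31 for WBP11 and -0.86 for GPATCH8. Recomputed, GPATCH8 was at 90.0 and 103 min in siRNA cells and 189 and 189 min in mock cells. The order of the 3 by size of change was the same in both sets of half-lives. With 1 column left out at a time, the changes ran from -1.59 to -1.35 for MBNL1 and from -1.43 to -1.25 for WBP11, ranges that overlap, and from -1.08 to -0.94 for GPATCH8.

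**Figure D2:**
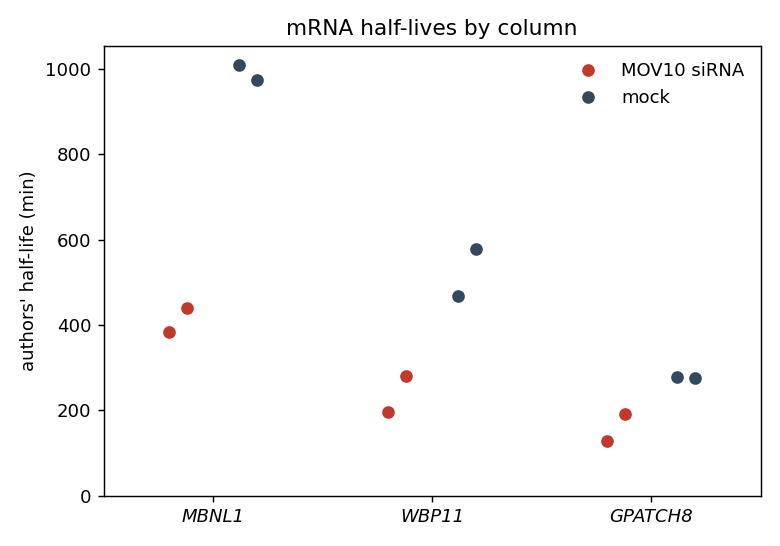
The authors' half-lives in minutes of MBNL1, WBP11 and GPATCH8, each point 1 column, with MOV10 siRNA cells (red) left of mock cells (dark). For each gene both siRNA points lie below both mock points, from 383 and 438 against 1009 and 973 min for MBNL1 to 129 and 191 against 277 and 275 min for GPATCH8.

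The 3 mRNAs began from different stabilities. In mock cells MBNL1 was a fairly stable mRNA (percentile 63.7 of the mean half-life among 6064 genes), WBP11 lay below the middle (percentile 30.9) and GPATCH8 was short-lived (percentile 12.8). In siRNA cells they stood at percentiles 19.0 for MBNL1, 8.87 for WBP11 and 4.27 for GPATCH8. The order MBNL1, WBP11, GPATCH8 held in both conditions. In mock cells the columns of the 3 genes did not overlap. In siRNA cells WBP11 exceeded GPATCH8 within each column, at 197 against 129 min and 281 against 191 min. The 2 siRNA columns differ in scale, with medians of 668 and 900 min over all 7682 genes. Relative to the median gene, WBP11 was at -1.96 and -1.88 and GPATCH8 at -2.57 and -2.43 on the log2 scale.

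Total RNA was lower for all 3, most for WBP11 and MBNL1. WBP11 was at 15.97 and 16.3 in siRNA cells, against 46.9 and 52.0 in mock cells. MBNL1 was at 6.95 and 7.02 in siRNA cells, against 20.9 and 20.9 in mock cells. GPATCH8 was at 8.93 and 8.87 in siRNA cells, against 13.5 and 14.5 in mock cells. In each case the siRNA columns were close to each other and lay below both mock columns, as did those of 30.2% of all genes. As plain ratios of means WBP11 was 3.06-fold lower, MBNL1 2.99-fold lower and GPATCH8 1.57-fold lower. On the log2 scale the changes were -1.53 for WBP11, -1.43 for MBNL1 and -0.58 for GPATCH8, places 4, 5 and 190 from the lowest. Which was larger, the change in total RNA or that in half-life, depended on the centring for MBNL1 but not for WBP11 or GPATCH8. For MBNL1 it depended also on the 1 added to expression values and on which half-lives were used. Its centred total RNA change was -1.56 with 0 added in place of 1, and its centred change in recomputed half-lives was -1.35. With centring the half-life changes were -1.34 for WBP11, -1.47 for MBNL1 and -1.01 for GPATCH8. Without centring, WBP11 was at -1.14 in half-life and -1.55 in total RNA, MBNL1 at -1.27 and -1.45, and GPATCH8 at -0.81 and -0.60. The authors derived half-lives from these same levels, so half-life and level are not independent measures.

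**Figure D3:**
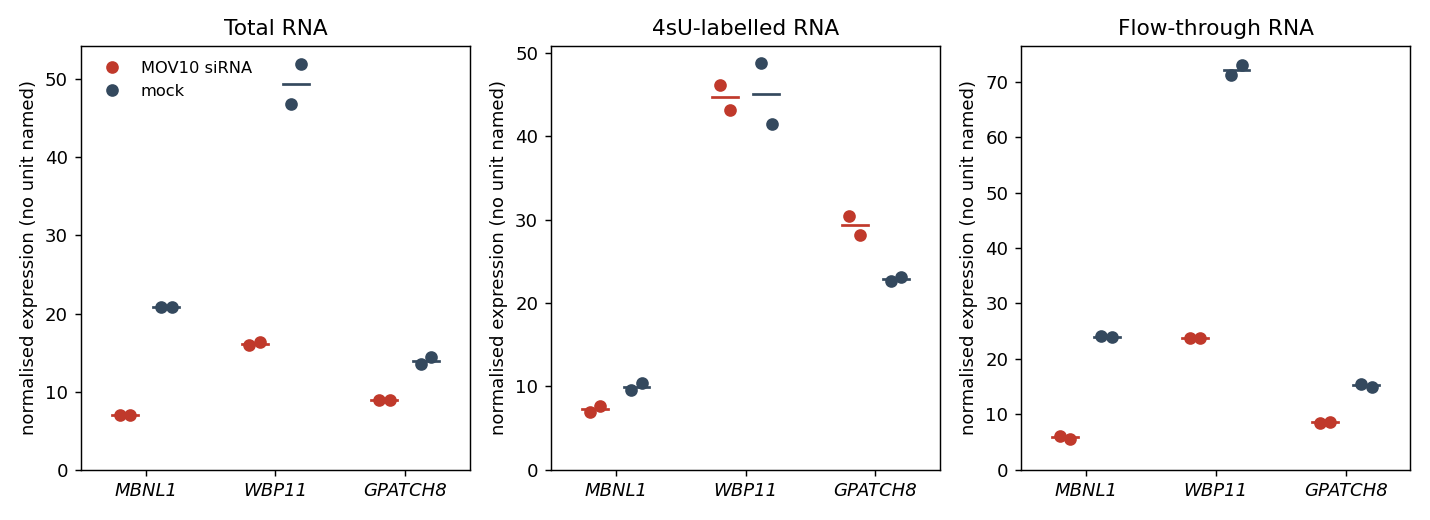
Normalised expression (no unit named) of MBNL1, WBP11 and GPATCH8 in total, 4sU-labelled and flow-through RNA, each point 1 column and each bar the mean of 2, with MOV10 siRNA cells (red) left of mock cells (dark). Flow-through means were 5.82 against 24.0 for MBNL1, 23.8 against 72.2 for WBP11 and 8.56 against 15.2 for GPATCH8, and labelled means of WBP11 were 44.7 against 45.1 with overlapping points.

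Flow-through RNA, which was not captured on the beads and was mostly made before the label was added, was lower for all 3 as well. MBNL1 averaged 5.82 ± 0.396 in siRNA cells and 24.0 ± 0.199 in mock cells (SD, n = 2 columns each), a 4.12-fold lower level and a log2 change of -1.86. WBP11 averaged 23.8 ± 0.0724 in siRNA cells and 72.2 ± 1.34 in mock cells (SD, n = 2 columns each), 3.04-fold lower and a change of -1.55. GPATCH8 averaged 8.56 ± 0.109 in siRNA cells and 15.2 ± 0.358 in mock cells (SD, n = 2 columns each), 1.78-fold lower and a change of -0.74. The columns of siRNA and mock cells did not overlap in any of the 3, as in 36.7% of all genes in this direction. Flow-through MBNL1 lay at percentile 3.28 of all genes in siRNA cells, against percentile 51.6 in mock cells.

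The labelled fraction set the 3 mRNAs apart from one another. Labelled MBNL1 averaged 7.29 ± 0.560 in siRNA cells and 9.97 ± 0.540 in mock cells (SD, n = 2 columns each), a change of -0.54. Labelled WBP11 averaged 44.7 ± 2.13 in siRNA cells and 45.1 ± 5.15 in mock cells (SD, n = 2 columns each), a change of -0.15. Its columns overlapped as deposited but not after centring. The change was -0.01 without centring and ran from -0.22 to -0.076 with 1 column left out. Labelled GPATCH8 averaged 29.3 ± 1.60 in siRNA cells and 22.9 ± 0.374 in mock cells (SD, n = 2 columns each), a change of 0.21, or 0.34 without centring. So labelled RNA was lower for MBNL1 and higher for GPATCH8 under either scaling, while for WBP11 whether the columns separate depends on the centring. Relative to the median gene, 30.5% of genes had both siRNA columns below both mock columns in labelled RNA. The share with both above was not counted, and the labelled change of GPATCH8 stood at percentile 83.8 of the 6064 genes. Before centring the median change of all genes in labelled RNA was 0.14.

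**Figure D4:**
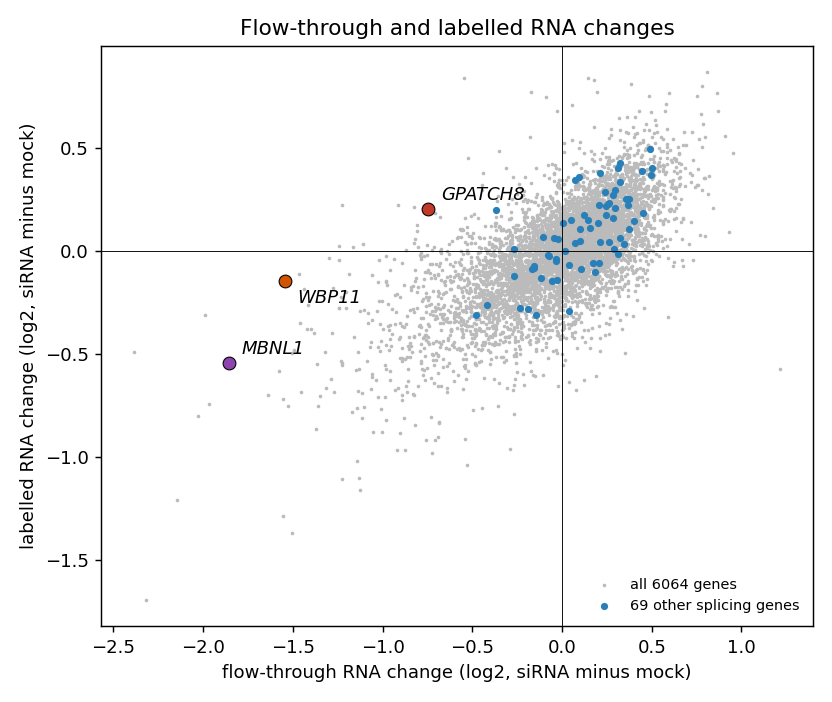
Log2 change in labelled RNA (y axis) against that in flow-through RNA (x axis), siRNA minus mock and relative to the median gene, for 6064 genes (grey), 69 other splicing genes (blue) and MBNL1, WBP11 and GPATCH8. The 3 genes lie far to the left (-1.86, -1.55 and -0.74) but at different heights (-0.54, -0.15 and 0.21).

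Within mock cells, labelled minus flow-through RNA shows how the 3 mRNAs were divided between the fractions. The half-lives on which they were selected derive in part from these columns, so the values are a description. Over the 6064 genes the median difference was -0.30, and 87.8% of genes passed in either direction, 33.2% higher in labelled RNA and 54.6% lower (limma, Benjamini-Hochberg adjusted p under 0.05). The split between higher and lower depends on the scaling. Centred on the median difference, an alternative chosen after seeing the data, 2597 genes passed higher and 2595 lower. GPATCH8 was at 22.6 and 23.2 in labelled RNA against 15.5 and 14.9 in the flow-through, a difference of 1.45 at percentile 90.5 of the genes. WBP11 was at 48.8 and 41.5 in labelled RNA against 71.2 and 73.1 in the flow-through, a difference of 0.22 at percentile 68.1, which was -0.67 without centring. MBNL1 was at 9.58 and 10.3 in labelled RNA against 24.1 and 23.9 in the flow-through, a difference of -0.30, at the median of all genes. The order of the 3, with GPATCH8 richest in labelled RNA, is the reverse of the order of their half-lives.

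Other genes of splicing were measured from 7 lists of 121 genes in all, with MBNL1, WBP11 and GPATCH8 left out. Of these, 69 were in the table, and all 69 passed the expression minimum. Their median half-life change was 0.02, with a range of -0.55 to 0.37, and 0 of the 69 passed the test in half-life, where 6.15% of all genes did, 1.88% higher and 4.27% lower (limma, Benjamini-Hochberg adjusted p under 0.05). At an unadjusted p under 0.05, 11 of the 69 passed, against 24.3% of all genes. With siRNA replicate 1 left out, 1 of the 69 passed, GPATCH11. In total RNA 7 of the 69 rose and 6 fell, where 27.2% of all genes passed, 12.9% higher and 14.3% lower. In labelled RNA 13 rose and 4 fell, where 21.4% of all genes passed, 9.88% higher and 11.5% lower. In flow-through RNA 37 rose and 9 fell, where 58.6% of all genes passed, 31.7% higher and 26.8% lower. Of the 69, 0 lay 1 log2 unit or more below the median gene in any of these measures, against 0.495% of all genes for half-life, 0.561% for total RNA, 0.148% for labelled RNA and 1.48% for the flow-through. The share of these genes with TACTGCA in the longest annotated 3' UTR was 7.25% (5 of 69), against 11.7% of all. These 5 did not share a direction in half-life, and 0 of them passed the test. MBNL3 (1 match) was at -0.48, GPATCH2 (2 matches) at -0.13, RBM17 (1 match) at -0.05, RBM25 (2 matches) at 0.22 and GPATCH2L (2 matches) at 0.34.

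**Figure D5:**
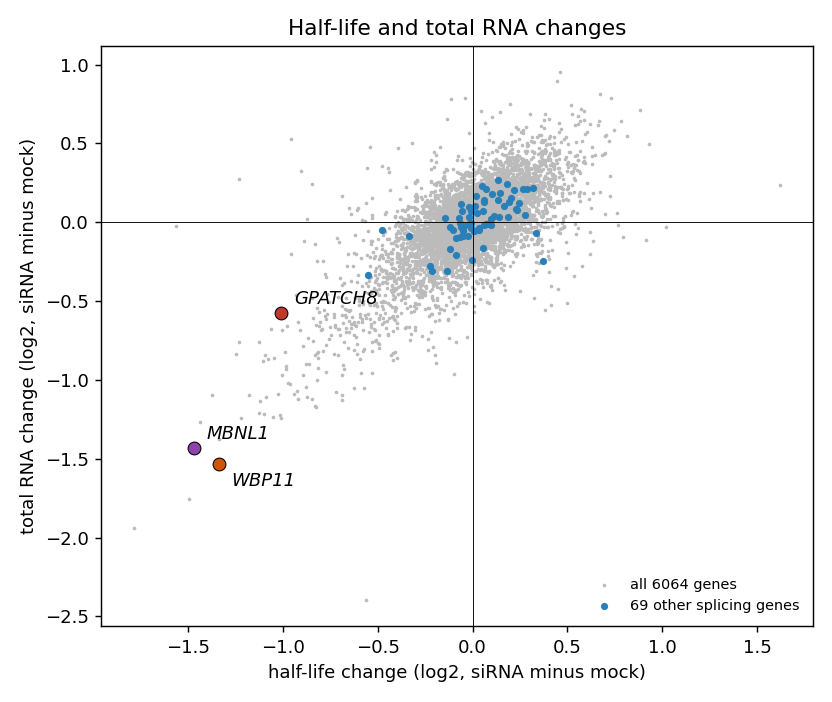
Log2 change in total RNA (y axis) against that in half-life (x axis), siRNA minus mock and relative to the median gene, for 6064 genes (grey), 69 other splicing genes (blue) and MBNL1, WBP11 and GPATCH8. The other splicing genes lie between -0.55 and 0.37 in half-life, while the 3 named genes lie at -1.47, -1.34 and -1.01.

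The paralogues of MBNL1 passed the test in 0 of the 4 siRNA and mock comparisons. MBNL2 had half-lives of 366 and 373 min in siRNA cells and 309 and 321 min in mock cells (change 0.03, limma, Benjamini-Hochberg adjusted p = 0.907). MBNL3 had 774 and 1822 min in siRNA cells and 1869 and 1118 min in mock cells (change -0.48, limma, Benjamini-Hochberg adjusted p = 0.416), with columns that overlapped. Labelled MBNL3 was at 3.18 and 2.18 in siRNA cells and 1.90 and 2.72 in mock cells, near the lowest expression value of 1.00. Its half-lives rest on these low values, so a change in them could be missed. Total RNA of MBNL2 was at 7.44 and 7.72 in siRNA cells against 7.66 and 8.33 in mock cells, and that of MBNL3 at 7.92 and 7.30 against 8.27 and 7.79. MBNL2 and MBNL3 were the 2 measured of 11 other MBNL, CELF and RBFOX genes. The CELF proteins, which often act on the same exons as MBNL proteins in the opposite direction, and the RBFOX regulators were not analysed here.

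Of 22 other G-patch genes, 12 were measured and 0 passed in half-life (3 at an unadjusted p under 0.05, against 24.3% of all genes). The lowest was GPATCH11 at 307 and 260 min in siRNA cells and 353 and 370 min in mock cells (change -0.55, limma, Benjamini-Hochberg adjusted p = 0.156). The highest was GPATCH2L at 657 and 851 min in siRNA cells and 517 and 518 min in mock cells (change 0.34, limma, Benjamini-Hochberg adjusted p = 0.0809). In total RNA 2 of the 12 rose and 2 fell, where 12.9% of all genes rose and 14.3% fell. GPATCH11 was among those that fell, at 7.32 and 7.28 in siRNA cells against 9.85 and 9.40 in mock cells (change -0.34, limma, Benjamini-Hochberg adjusted p = 0.0131). In flow-through RNA 8 rose and 1 fell, against 31.7% and 26.8% of all genes. DHX15, a helicase that G-patch proteins activate, named for that role and not by the rule, had half-lives of 1039 and 1442 min in siRNA cells and 972 and 1078 min in mock cells (change 0.06).

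Of 10 genes for partners of WBP11 and other WW-domain splicing proteins, 7 were measured and 0 passed in half-life (0 also at an unadjusted p under 0.05). The binding partner PQBP1, named for that role and not by the rule, was at 1009 and 1660 min in siRNA cells and 921 and 1074 min in mock cells (change 0.18). The lowest and highest were catalytic subunits of protein phosphatase 1. PPP1CA was at 941 and 1357 min in siRNA cells and 931 and 1121 min in mock cells (change -0.05), and PPP1CC at 759 and 903 min in siRNA cells and 602 and 658 min in mock cells (change 0.20). Total RNA passed in 0 of the 7, 3 of them at an unadjusted p under 0.05 against 39.3% of all genes, while that of WBP11 was 3.06-fold lower.

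The core spliceosome and the other regulators gave the same count of 0. Of 15 measured genes of the U2 snRNP, the SF3 complex and the DEAH helicases, which recognise the branch site or remodel the spliceosome, total RNA fell in 3 and rose in 0, where 14.3% of all genes fell and 12.9% rose. SF3B2 was one of these, at 68.0 and 66.8 in siRNA cells against 79.7 and 86.8 in mock cells (change -0.28, limma, Benjamini-Hochberg adjusted p = 0.00529), with half-lives of 776 and 1052 min against 873 and 976 min. SNRPA1, a U2 snRNP protein, had the highest half-life change of that list, 0.37, at 588 and 657 min in siRNA cells against 505 and 349 min in mock cells. Of 13 genes of the U5 snRNP and the PRP19-associated complex, half-life changes ran from -0.21 (BUD31) to 0.23 (PLRG1). Total RNA of BUD31 fell, at 49.1 and 50.5 in siRNA cells against 60.1 and 65.3 in mock cells (change -0.31, limma, Benjamini-Hochberg adjusted p = 0.00397). Of 19 sequence-specific regulators, QKI was lowest in half-life at 1215 and 1486 min in siRNA cells against 1496 and 1468 min in mock cells (change -0.34). TIAL1 was highest at 1405 and 1867 min against 1180 and 1138 min (change 0.29), and its total RNA rose (change 0.21, limma, Benjamini-Hochberg adjusted p = 0.0360). Of 14 SR protein and TRA2 genes 1 was measured, TRA2A, at 1324 and 1451 min in siRNA cells against 961 and 981 min in mock cells (change 0.32), and its total RNA rose by 0.22 (limma, Benjamini-Hochberg adjusted p = 0.0318).

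The genes most like each of the 3 were found by Euclidean distance over the 12 expression columns, after removing each gene's mean in each fraction, so that it compares the pattern between columns and not the level. The labelled columns were among those used, and half-lives derive from the same fractions. Likeness of these genes in labelled RNA or half-life therefore follows from how they were picked and is a description only. MBNL1 and WBP11 were 0.604 apart, MBNL1 and GPATCH8 1.61 and WBP11 and GPATCH8 1.31. The 5 genes nearest to MBNL1 were BTBD1 (0.439), CCNJ (0.485), LAPTM4A (0.5003), HMGA2 (0.509) and UBQLN1 (0.559), against a median of 2.47 over all genes. Like MBNL1, all 5 were lower in labelled RNA, by -0.38 to -0.75 on the log2 scale. Nearest to WBP11 were the mitochondrial glycerol-3-phosphate dehydrogenase GPD2 (0.394), lactate dehydrogenase A, LDHA (0.469), UBQLN1 (0.478), SNX12 (0.485) and ZCCHC10 (0.520), against a median of 2.25. Their half-life changes ran from -1.01 to -1.44. Nearest to GPATCH8 were GSPT1 (0.161), which encodes the translation termination factor eRF3a, LPHN2 (0.179), FTSJ1 (0.247), DPF1 (0.247) and MET (0.276), against a median of 1.06. In 4 of these 5 labelled RNA was above the median gene, by 0.07 to 0.18, and DPF1 was at -0.02. None of the 14 genes is in the splicing lists. No annotated 3' UTR was found under the symbol LPHN2. Of the other 13, 6 carried TACTGCA (46.2%): UBQLN1, GPD2, LDHA, ZCCHC10, FTSJ1 and DPF1. They were picked for being like genes that carry it or lost stability, and of all 251 genes with a 3' UTR whose half-life fell by the test, 38.6% carried it. The sequence was found by a search of these same half-lives, and genes that carry it have longer 3' UTRs (median 3212 bases) than those that do not (1212 bases), so these shares are not independent evidence.

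Reads could be shared with neighbouring genes at 1 of the 3 loci in a way that strand would settle. In GENCODE v29 MBNL1 (chr3:152243828-152465780, plus strand) overlaps 3 genes on the other strand, among them MBNL1-AS1, and the sources used here do not say whether reads were counted by strand. WBP11 (chr12:14784579-14803540, minus strand) overlaps no other annotated gene. GPATCH8 (chr17:44395284-44503430, minus strand) overlaps 2 small annotated genes on its own strand and 0 on the other.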

How the data were processed

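The data are poly(A)+ RNA-seq of total, 4sU-labelled and flow-through RNA. Alignment was by TopHat2 2.06 against hg18, per the submitters' processing notes, and the tool behind the expression values is not named there. The authors deposited 12 columns of a normalised signal for each gene, and the header names no unit for it. The other unit, that of the 4 deposited half-life columns, is not named either. Per the labels' protocols the half-lives follow Schwanhausser et al. They were taken as minutes, since first-order decay over 60 min, with fraction weights by total least squares, gave column medians of 504 to 587 min, against 657 to 900 in the authors' columns. Single genes can lie further apart: MBNL1 in siRNA cells was recomputed at 245 and 216 min, against the authors' 383 and 438.

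The 2 numbered columns of a group were treated as replicates. limma 3.58.1 (R 4.3.3) was fitted with a mean-variance trend to log2(value + 1) or log2 half-life of 6064 genes, each column centred on its median gene, with Benjamini-Hochberg adjustment over all of them at 0.05. It was tested on simulated data. The members and lists were chosen with earlier results of these data known. Named beside the members were MOV10, the 5 nearest genes of each member, all measured MBNL, CELF and RBFOX genes, and of each other list the genes called in half-life or, with none, its lowest and highest change. Older symbols were matched for GPATCH11 (CCDC75) and GPATCH2L (C14orf118), among others. 3' UTRs are the longest per symbol in GENCODE 29 (5664 of 6064 genes, 93.4%). Either symbol was tried for the splicing lists only, so elsewhere a gene renamed since counts as having no 3' UTR. Alternatives were other expression minimums (none, 20), pseudocounts (0, 5), no centring, each column left out, recomputed half-lives and a replicate block. Counts of reads and depth are unknown, so no counting interval is given.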

Additional observations from a re-analysis of the deposited data

Results flagged for a closer look

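GPATCH8 moved in opposite directions in different fractions. Relative to the median gene, its labelled RNA was higher in both siRNA columns than in both mock columns, while its flow-through and total RNA were lower in both. Its labelled change of 0.21 stood at percentile 83.8 of the 6064 genes. Its flow-through and total RNA changes stood at percentiles 3.73 and 3.13. The share of all genes whose columns separate upward in labelled RNA was not counted. Downward, the columns separated for 36.7% of genes in flow-through RNA and 30.2% in total RNA. For GPATCH8, the log2 change in labelled RNA exceeded that in flow-through RNA by 0.95 and that in total RNA by 0.78. The difference was not tested, because GPATCH8 was chosen on the same contrast.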

How the results depend on the processing

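In the siRNA and mock comparisons, MBNL1, WBP11 and GPATCH8 kept the direction of every change in the alternatives looked at for them. These were no centring, each column left out, pseudocounts of 0 and 5 for the fractions, and recomputed half-lives. Their changes with no minimum and with a replicate block were not looked at in these comparisons. Without centring, the half-life changes were -1.27 for MBNL1, -1.14 for WBP11 and -0.81 for GPATCH8, and with recomputed half-lives that of GPATCH8 was -0.86. A minimum of 20 leaves none of the 3 genes with a value in that fit. In mock cells, the labelled minus flow-through difference of GPATCH8 was above 0 in each alternative run. That of MBNL1 was -0.0022 when centred on the median difference, an alternative chosen after seeing the data. That of WBP11 reversed to -0.67 without centring, was 0.13 with no minimum and 0.098 with a pseudocount of 5, and ran from 0.15 to 0.29 with 1 column left out. Where no value shows the cause of such a move, the cause was not tested.

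Counts of calls over all genes moved more. A minimum of 20, which tests fewer genes, gave 63 higher and 94 lower in half-life, 353 and 310 in total, 252 and 320 for labelled RNA, 923 and 744 for the flow-through, and 831 and 1460 in mock labelled minus flow-through. No centring gave 2 and 5 in half-life, 1641 and 333 in labelled RNA, 451 higher in total RNA and 819 higher in mock labelled minus flow-through. Recomputed half-lives gave 191 higher. With 1 column left out, calls ran from 1 to 75 higher and from 48 to 173 lower in half-life, from 322 to 834 and from 534 to 931 in total RNA, and from 379 to 498 and from 447 to 647 in labelled RNA; main counts were 114 and 259, 783 and 868, and 599 and 700. The lowest counts came without mock column 1 in half-life, siRNA column 1 in total RNA and mock column 2 in labelled RNA. Of the 69 splicing genes, 0 to 1 passed in half-life, GPATCH11 without siRNA column 1.

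The columns share only a number: deviations of same-numbered columns correlated at -0.07 to 0.11 over genes. A replicate block gave 21 higher and 118 lower in half-life and moved no other count of calls by over 1.5 times. The read depth is unknown, and 2 columns a group limit the precision.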
